A study of Mus musculus with 14 samples.

Results

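Livers from a high-fat Western diet (HFWD) were compared with livers from chow, over every gene row of the deposited expression table that stood above the table's floor of 1 in at least 4 of the 14 livers of the series. This gave 14770 of 22850 rows and 9 of the 14 livers, 4 on chow and 5 on HFWD. All mice were C57BL/6N and entered the diets at 7 weeks of age. Chow supplied about 12% of energy from fat and the HFWD 40%, the labels give lard, butterfat and Crisco as fat sources, and both groups drank water without added sugar. The 5 other livers, from mice that drank sugar at 42 g/L with the HFWD (HFWD+sugar), served to estimate the spread and are set beside the others only where named. The labels used here give neither sex, time on diet, nor whether any library pooled animals. Groups were taken from the treatment labels, and each library carries a number of its own. Should libraries share an animal, p-values would speak only of these samples' spread.

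A liver that receives cholesterol with its fat shuts down its own cholesterol synthesis. Sterols hold the transcription factor SREBP2 in the endoplasmic reticulum, and the genes of the mevalonate and sterol pathways lose their activator. Oxysterols engage LXR, which turns on sterol export through ABCG5 and ABCG8 and the lipogenic factor SREBP1c. Insulin and sugar drive glycolysis and fatty acid synthesis, and fat in excess is stored in droplets, whose coat and fusion proteins rise in fatty livers.

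RNA was sequenced from whole liver, so fewer cells of a type and less RNA per cell cannot be told apart. Values are normalized expression units on a linear scale. Between 54.2% and 64.8% of low values were whole multiples of a step of 2.47 to 6.85 units that differed by library, and if that step is the worth of 1 read, the libraries held the equivalent of 3.77 M counted reads (chow 4), 5.84 M (HFWD 1) and up to 9.34 M, with a median of 8.36 M. The 2 libraries with the lowest weights in limma's array weighting were chow 2 (0.444) and chow 4 (0.349). A row does not always hold the level of the gene it is named for. The Alb row, for albumin, averaged 3036 units over the 14 livers and the Rassf6 row, 126 kb away on the opposite strand, 683498. The strand setting of the counting is not given in the sources used here, and reads of a gene and its opposite-strand partner cannot be told apart. Symbols below name rows. Of the markers of other cells, 11 of 17 for pancreatic acinar cells were at the floor in all 14 livers, and the summed hepatocyte list ran from 358807 to 798890 units on chow and 288780 to 528023 on HFWD, with its members' own rows at a median log2 difference of 0.055.

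On HFWD 361 rows rose (2.44% of those tested) and 138 fell (0.934%), together 3.38%, by limma with an adjusted p under 0.05. At least 2-fold differences were found in 145 of the risers and 51 of the fallers (0.982% and 0.345% of tested rows). Chow and HFWD values did not overlap in 400 of the 499 called rows and in 863 rows (5.84%) overall. The fallers were fewer and more abundant, with a median level of 1029 units against 646 for the risers and 54.0 for all tested rows. The median difference was 0.80 on the log2 scale among risers, -0.78 among fallers and 0.042 over all rows. An unadjusted p under 0.05 was reached by 2397 rows, where 738.5 would be expected by chance.

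How much could be called depended on the level of the row. Below 20 units, where a value rests on a handful of reads, 27 of 5261 rows rose (0.513%) and 10 fell (0.19%), with a median SE of 0.504 on the log2 scale. From 20 to 200 units the shares were 1.78% and 0.45% of 4444 rows, at a median SE of 0.308. From 200 to 2000 units they were 4.96% and 1.83% of 3164 rows, at 0.136, and from 2000 units up 5.16% and 2.63% of 1901 rows, at 0.0994. The median size of a called difference went the other way, from 1.99 in the lowest class to 0.519 in the highest. Differences of under about 1 on the log2 scale were thus within reach for abundant rows and largely out of reach near the floor.

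**Figure D1:**
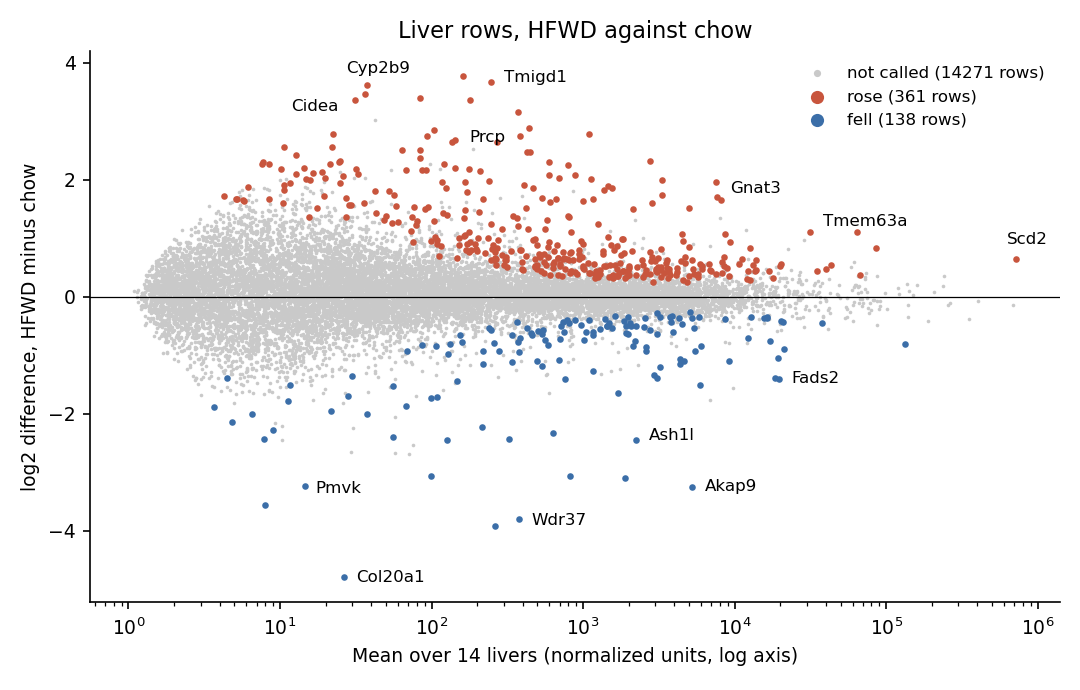
Each point is 1 of the 14770 tested rows, placed by its mean over the 14 livers in normalized units (log axis) and its log2 difference, HFWD minus chow. The 361 rows that rose are red and the 138 that fell blue; the called differences narrow as the level rises, and Akap9 and Wdr37 stand below most other abundant rows.

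The calls also depended on which livers were kept. Without chow 4, 709 rows rose and 342 fell, and without both chow 4 and HFWD 1, the shallowest libraries, 546 and 198. Without chow 1 the counts were 228 and 80, without chow 3 they were 223 and 77, without HFWD 4 they were 193 and 62, and without HFWD 1 the fallers numbered 79. With every library centred on its own median, 187 rose and 88 fell. Of the 79 called rows described below, 48 were called under each of the 28 alternatives that tested them. Pmvk, 1 of the 48, has a mean of 14.7 units and was not tested where a mean of at least 20 units was asked for. Where a call ended on leaving out a liver or a pair of livers, this is said beside the row. With only the 9 chow and HFWD livers in the fit, 21 of the 79 calls ended, which is mostly not marked by row.

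Several of the deepest falls among abundant rows lay beside genes of sterol synthesis. Called fallers included 9 with such a gene, or a gene of sterol sensing, as their nearest row on the opposite strand. These were 9 of 135 fallers with such a neighbour within 200 kb (6.67%), against 0 of 352 risers and 17 of 13461 uncalled rows (0.126%). Among the 9 were Akap9 beside Cyp51, Wdr37 beside Idi1, Cetn2 beside Nsdhl, Nadsyn1 beside Dhcr7, Camk4 beside Stard4, Mmab beside Mvk, Ggt7 beside Acss2 and Ctsb beside Fdft1. Nadsyn1, Mmab, Ggt7 and Ift20 were picked after their values had been seen.

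Cetn2 and Nsdhl start 145 bases apart, and Mmab and Mvk 209 bases apart, back to back on opposite strands in the table's mm9 coordinates, so each pair shares the stretch between its starts. The promoters of Nsdhl, Mvk, Cyp51 and Idi1 are printed as examples of genes whose neighbouring row fell; 6 of the 9 sterol genes had an entry in the RefSeq table (GRCm38.p6, 250 bases before to 50 after the start, written along the gene's strand). Nsdhl (chrX:72918271-72918570, plus strand), Mvk (chr5:114444019-114444318, plus), Cyp51 (chr5:4104648-4104947, minus) and Idi1 (chr13:8885356-8885655, plus) follow, with the CCAAT box, the binding sequence of the factor NF-Y, and its reverse complement ATTGG in capitals.
Nsdhl: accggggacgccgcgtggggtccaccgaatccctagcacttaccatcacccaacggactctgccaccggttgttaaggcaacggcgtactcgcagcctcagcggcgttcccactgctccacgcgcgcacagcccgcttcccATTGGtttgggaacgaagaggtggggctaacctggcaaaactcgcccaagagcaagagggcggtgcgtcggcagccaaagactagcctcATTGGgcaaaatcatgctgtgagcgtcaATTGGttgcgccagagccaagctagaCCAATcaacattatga
Mvk: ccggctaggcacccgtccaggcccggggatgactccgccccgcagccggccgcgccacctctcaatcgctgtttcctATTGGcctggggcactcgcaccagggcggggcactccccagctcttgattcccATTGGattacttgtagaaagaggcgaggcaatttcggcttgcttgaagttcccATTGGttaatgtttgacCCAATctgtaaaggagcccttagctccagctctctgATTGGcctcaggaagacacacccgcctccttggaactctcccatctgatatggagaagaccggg
Cyp51: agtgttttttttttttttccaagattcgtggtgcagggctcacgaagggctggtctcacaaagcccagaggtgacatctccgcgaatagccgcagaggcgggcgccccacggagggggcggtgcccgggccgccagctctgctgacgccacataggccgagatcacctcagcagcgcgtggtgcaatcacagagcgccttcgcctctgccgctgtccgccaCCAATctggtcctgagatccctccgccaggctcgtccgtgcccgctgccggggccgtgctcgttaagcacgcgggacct
Idi1: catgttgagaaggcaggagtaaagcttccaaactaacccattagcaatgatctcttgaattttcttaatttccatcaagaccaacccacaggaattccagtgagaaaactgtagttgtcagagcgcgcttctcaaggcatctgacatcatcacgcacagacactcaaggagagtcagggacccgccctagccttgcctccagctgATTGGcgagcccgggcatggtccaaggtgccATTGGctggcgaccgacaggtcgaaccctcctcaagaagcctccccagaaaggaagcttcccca
NF-Y is a known partner of SREBP at sterol genes. On both strands the Mvk promoter holds 5 such boxes, Nsdhl 4, Idi1 2 and Cyp51 1. Not printed are the Acss2 promoter, with 1, and the 3 start windows listed for Dhcr7, with 0, 0 and 2. Of 32851 promoters of this length, 37.4% hold at least 1, 11.7% at least 2, 1.06% at least 4 and 0.271% at least 5. TCACNCCAC, 1 strict form of the SREBP motif, read on both strands, is in 1.24% of all these promoters and in 0 of the 4 windows. Other forms of the motif were not searched, so this does not show that the windows lack an SREBP site. These matches are letters in a window and were not tested as binding sites.

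Akap9 (chromosome 5, 3928054 to 4080209, plus strand, mm9) encodes a scaffold of the centrosome and Golgi, and its row ends 0.936 kb from Cyp51, the lanosterol demethylase. It stood at 12708, 16989, 13374 and 15139.8 units in the 4 chow livers and at 1686, 1379, 1632, 1425 and 1506 in the 5 HFWD livers. Every HFWD liver lay far below the lowest chow liver. The row fell 9.5-fold, by 3.25 on the log2 scale (SE 0.13, adjusted p = 1.59e-10), the smallest p of the comparison. The Cyp51 row itself was at 3359 ± 915 units (SD, n = 4) and 2864 ± 349 (SD, n = 5) and was not called (adjusted p = 0.603), though it was once chow 2 and chow 4 were left out together (adjusted p = 0.0264).

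Wdr37 (chromosome 13, 8802214 to 8871155, minus strand), a WD-repeat protein, lies 13.6 kb from Idi1, the isopentenyl diphosphate isomerase. Its row was at 846, 1100.1, 1100.4 and 1373 units on chow and 118, 82.2, 72.9, 64.7 and 60.3 on HFWD. The groups lay far apart. This was a 13.9-fold fall (adjusted p = 2.04e-09), while the Idi1 row, at 728 ± 49.5 and 635 ± 27.5, did not pass (adjusted p = 0.334).

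The row of Cetn2, centrin 2 (chromosome X, 70158871 to 70163750, minus strand), showed 719.7, 489.7, 804 and 1060.2 units on chow and 179.8, 104, 143, 147 and 118 on HFWD. All chow livers were higher than all HFWD livers, and the row fell 5.41-fold (adjusted p = 2.49e-06). Its partner Nsdhl, a sterol dehydrogenase, went from 812 ± 217 to 655 ± 58.9 without a call (adjusted p = 0.323). Nadsyn1, the NAD synthetase beside the last enzyme of cholesterol synthesis, Dhcr7, was at 3262, 2852, 2706 and 4172 and then 1037, 968, 1295, 975 and 859 units. Here too the groups were separate, and Nadsyn1 fell 3.14-fold (adjusted p = 1.2e-05). Camk4, a calcium-dependent kinase 3.59 kb from the sterol carrier gene Stard4, fell 2.63-fold, from 6029 ± 2171 to 2219 ± 489 (adjusted p = 0.00231).

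Reading the 24 tested genes of cholesterol synthesis through the higher opposite-strand row within 200 kb, where one existed (14 tested rows), 6 such rows fell and 0 rose. Such rows are picked for their level, and of all 5112 tested rows that are the higher opposite-strand row of some row, 1.74% fell and 3.83% rose, the shares beside which the opposite-strand counts here and below stand. Besides Akap9 these included Ash1l, a histone methyltransferase 14.2 kb from Fdps, E430025E21Rik, 0.806 kb from the squalene epoxidase gene Sqle, BC048609, 11.7 kb from the sterol reductase gene Tm7sf2, and Ift20, 0.080 kb from Tmem97. E430025E21Rik was at 3639, 8346, 4629.5 and 4103 units on chow and within a narrow band on HFWD, at 612, 586, 516, 551 and 592. It fell 8.58-fold (adjusted p = 5.31e-09). BC048609 stood at 10707, 10311, 11063 and 12289.9 on chow and at 4312, 3777, 3597, 3830.2 and 3891 on HFWD. Neither row overlapped between the diets, and BC048609 fell 2.86-fold with an SE of 0.078 on the log2 scale (adjusted p = 2.04e-09). Ash1l fell 5.45-fold (5396 ± 1481 to 974 ± 159 units, adjusted p = 2.55e-07). The Ift20 call (adjusted p = 0.0357) ended once HFWD 1, HFWD 2, HFWD 4, HFWD 5, chow 1 or chow 4 was left out (adjusted p = 0.0543 to 0.102) and once chow 4 and HFWD 1 were left out together (adjusted p = 0.105).

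By their own rows 3 of the 24 fell (12.5%) and 0 rose, with a median log2 difference of -0.28 beside 0.042 over all rows. Of all tested rows 2.44% rose and 0.934% fell, the shares beside which the own-row counts here and below stand. Pmvk, the phosphomevalonate kinase, was at 28.2, 47.7, 23.1 and 34.3 units on chow and at 1, 1, 3.04, 8.04 and 2.64 on HFWD. The HFWD values were at most 3 of the library's steps, and all lay below the lowest chow liver (adjusted p = 0.000425). Sc4mol, the sterol methyl oxidase, went from 55.4 ± 16.8 to 16.1 ± 2.83 (adjusted p = 0.0145), a call lost once chow 2 and chow 4 were left out together (adjusted p = 0.0894). Fdps, farnesyl diphosphate synthase, was at 12 ± 6.33 and 2.12 ± 2.22 (adjusted p = 0.0195), and its call ended once HFWD 1, HFWD 4 or chow 3 was left out (adjusted p = 0.0508 to 0.0598), once chow 2 and chow 4 were left out together (adjusted p = 0.066) and once chow 4 and HFWD 1 were left out together (adjusted p = 0.0748). The Sqle row was at 176 ± 17.2 and 191 ± 24.4 (adjusted p = 0.763) and Mvk, the mevalonate kinase, at 993 ± 287 and 678 ± 22.4 (adjusted p = 0.0538). Neither passed, but Mvk did once chow 2 was left out (adjusted p = 0.00461), also together with chow 4 (adjusted p = 0.00785). Hmgcs1 was not analysed here.

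The remaining neighbours of sterol genes were less stable. Mmab, the cobalamin adenosyltransferase, fell from 925 ± 511 to 379 ± 95.3 units (adjusted p = 0.0257), and the call ended once HFWD 1, HFWD 2, HFWD 5, chow 1 or chow 3 was left out (adjusted p = 0.0542 to 0.066) and once chow 4 and HFWD 1 were left out together (adjusted p = 0.0713). Ggt7, of the gamma-glutamyltransferase family, fell from 567 ± 282 to 234 ± 25.7 (adjusted p = 0.0244), a call lost once HFWD 2, HFWD 3, chow 1 or chow 3 was left out (adjusted p = 0.0536 to 0.0833) and once chow 4 and HFWD 1 were left out together (adjusted p = 0.0631). Ctsb, the lysosomal protease cathepsin B, fell from 3857 ± 1564 to 2046 ± 439 (adjusted p = 0.028), and this ended once HFWD 1, HFWD 2, HFWD 5 or chow 3 was left out (adjusted p = 0.0553 to 0.0719) and once chow 4 and HFWD 1 were left out together (adjusted p = 0.0855). The Ctsb row, at a mean of 2613 units over the 14 livers, overlaps that of Fdft1 on the other strand, at 34405.

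**Figure D2:**
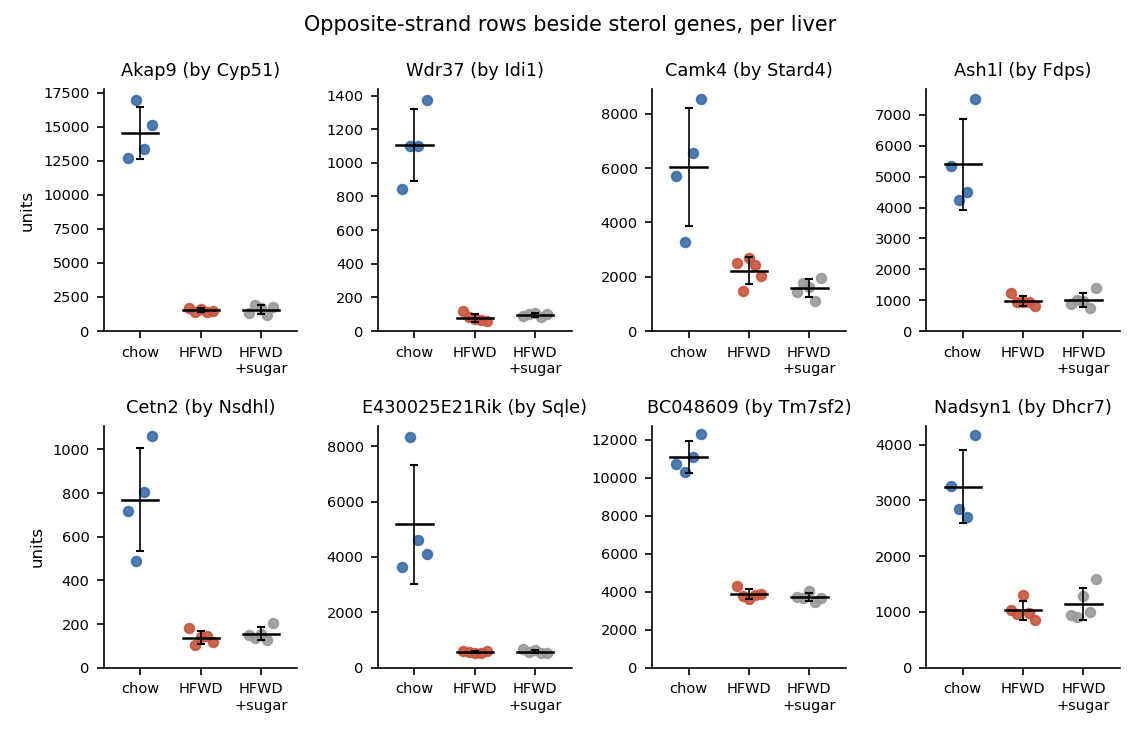
Normalized units per liver (points, axes from 0) with the mean and SD (bars) for 8 rows beside sterol genes, in 4 chow, 5 HFWD and 5 HFWD+sugar livers. All chow livers lie above all HFWD livers in each panel, and the HFWD+sugar livers, which share the same chow controls, sit near the HFWD level.

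Genes of sterol sensing, uptake and disposal gave few calls by their own rows. Of 19 genes of sterol sensing and uptake, 0 were called (median 0.16), and of their 14 opposite-strand rows 1 fell (Camk4, above) and 1 rose. The latter was R3hdm2, an R3H domain protein, from 3340.3, 4653, 6145 and 5963 to 8981, 8460.2, 15046, 10374 and 9382 units without overlap (2.09-fold, adjusted p = 0.00557). Of 13 LXR targets and efflux genes 1 rose, Abcg5, which with Abcg8 exports sterols into bile and shares a promoter region with it. The Abcg5 row (chromosome 17, 85057574 to 85082351, minus strand) read 37.2, 33.7, 33.2 and 54.8 units on chow and 90.3, 93.1, 137, 129 and 129 on HFWD. Its lowest HFWD liver stood well above its highest chow liver, a 2.88-fold rise (adjusted p = 0.00289). The Abcg8 row was at 24061 ± 2664 and 29689 ± 2807 and did not pass (adjusted p = 0.144). The row of Ctsa, the lysosomal carboxypeptidase cathepsin A, overlaps Pltp, the phospholipid transfer protein, on the other strand. It was at 5766, 5628, 4264 and 5395 on chow and 2042, 2546, 2137, 2332 and 2363 on HFWD, with no overlap, and fell 2.29-fold (adjusted p = 1.56e-06), while the Pltp row was not called (log2 difference 0.0066, adjusted p = 0.992). Of 24 bile acid genes 0 were called by their own rows and 2 of 19 opposite-strand rows rose. Cyp7a1, the rate-limiting enzyme of bile acid synthesis, ranged from 10.6 to 136 units on chow and from 51.5 to 222 on HFWD (adjusted p = 0.282).

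Fatty acid desaturases moved in both directions. Fads2 and Fads1, which insert double bonds into polyunsaturated chains, fell, and the stearoyl-CoA desaturase rows Scd1 and Scd2 rose. Among the 16 tested desaturases and elongases these were the 4 called (2 rose and 2 fell, median 0.0014). Fads2 (chromosome 19, 10138654 to 10175993, minus strand) stood at 35784, 30605, 34533 and 35335 units on chow and 16208, 11409, 9431, 16037 and 12216 on HFWD. The highest HFWD liver stayed well short of the lowest chow liver, and Fads2 fell 2.66-fold (adjusted p = 1.05e-05). Fads1, from 341, 317, 282 and 329 to 169, 103, 127, 189 and 136 units, fell 2.23-fold (adjusted p = 0.00149), again without overlap. The Sycp2l row, of a synaptonemal complex protein, lies 8.02 kb from the elongase gene Elovl2, which acts on the same polyunsaturated chains. It fell from 29886, 33161, 33631 and 31038 on chow to 16552, 14554, 21510.4, 17662 and 16461 on HFWD, 1.85-fold and without overlap (adjusted p = 0.00063), while the Elovl2 row did not pass (log2 difference 0.48, adjusted p = 0.185).

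Scd1, which makes monounsaturated fatty acids, was at 4582, 6445, 5189 and 4429 units on chow and 9234, 8611, 7292, 7527 and 6227 on HFWD, a 1.51-fold rise (adjusted p = 0.0145) in which HFWD 5 fell within the chow range. The call ended once chow 1 was left out (adjusted p = 0.0546) and once chow 4 and HFWD 1 were left out together (adjusted p = 0.0571). Scd2, 87.6 kb away on the other strand, held one of the highest values of the table, 467991 ± 77408 on chow and 731246 ± 117101 on HFWD. It rose 1.56-fold (adjusted p = 0.028), and its call ended once HFWD 1, HFWD 2, HFWD 3 or chow 1 was left out (adjusted p = 0.0503 to 0.0992) and once chow 4 and HFWD 1 were left out together (adjusted p = 0.0581). Both calls were thus absent without chow 1, and also with only the 9 chow and HFWD livers in the fit. Of 18 genes of fatty acid synthesis 1 rose (Scd1) and 1 fell. The latter was Acly, the ATP citrate lyase that supplies acetyl-CoA, from 173 ± 37.5 to 86.3 ± 16.8 (adjusted p = 0.0222), a call lost once HFWD 2, HFWD 4 or chow 1 was left out (adjusted p = 0.0566 to 0.0707) and once chow 2 and chow 4 were left out together (adjusted p = 0.117). Fasn, the fatty acid synthase, at 89 ± 38.8 and 70.0 ± 21.5, and Srebf1, at 39.2 ± 14.8 and 63 ± 22.6, were not called (adjusted p = 0.706; adjusted p = 0.325).

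A few rows of lipid uptake and storage rose. Of 23 genes of lipid droplets and PPARG targets 2 rose (8.7%) and 0 fell by their own rows, with a median log2 difference of 0.53. Of 19 opposite-strand rows 3 rose. Without both chow 2 and chow 4 the own rows that rose numbered 4. Cidea, a droplet fusion protein, was at the floor in 3 chow livers and at 2.65 units in chow 2. In the HFWD livers it stood at 12.2, 20.6, 63.1, 23.9 and 15.6 (adjusted p = 0.000289). Every HFWD liver was above every chow liver, and HFWD 3 was far above the rest. Cd36, through which cells take up fatty acids (chromosome 5, 17287508 to 17394777, minus strand), was at 45.6, 29.1, 31.6 and 54.7 and then 122, 148, 72.8, 119.9 and 86 units, 2.69-fold higher (adjusted p = 0.00777).

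The row of Gnat3, the taste G protein gustducin, 73.7 kb from Cd36 on the other strand, held far higher values of 2393, 2291, 1735 and 4542 on chow and 7536, 10564, 7206, 8971 and 8005 on HFWD. The groups were apart, and the row rose 3.27-fold (adjusted p = 6.32e-05). BC035947, which overlaps Mogat1, a monoacylglycerol acyltransferase, read 19.2, 36.8, 26 and 108 on chow and 182, 309, 233, 259 and 240.4 on HFWD, 6.25-fold higher (adjusted p = 0.000264). The Mogat1 row, at a mean of 13.4 units over the 14 livers, did not pass (log2 difference 1.27, adjusted p = 0.301). Agpat9, a glycerol phosphate acyltransferase, was the 1 of 19 triglyceride genes that rose (16.7 ± 6.62 to 44.1 ± 10.9 units, adjusted p = 0.0312), and it was no longer called once HFWD 1, HFWD 4, HFWD 5 or chow 1 was left out (adjusted p = 0.0531 to 0.0858), once chow 2 and chow 4 were left out together (adjusted p = 0.0779) and once chow 4 and HFWD 1 were left out together (adjusted p = 0.0853). The droplet proteins Cidec (2717 ± 466 and 2469 ± 345) and Plin2 (500.3 ± 387 and 446 ± 143) were not called (adjusted p = 0.676; adjusted p = 0.975), and Pparg, at 4.76 ± 3.58 and 8.12 ± 3.25, rests on few reads (adjusted p = 0.395).

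Fat burning showed 1 riser among the own rows of 39 PPARA targets and oxidation genes (median 0.10). This was 2.56%, near the 2.44% of all tested rows that rose. Of their 23 opposite-strand rows 2 rose. These were Dlec1, which overlaps the thiolase gene Acaa1b (1.36-fold, adjusted p = 0.0195), and Lef1, 9.06 kb from the dehydrogenase gene Hadh (1.48-fold, adjusted p = 0.0258). The Dlec1 call ended once HFWD 1, HFWD 2, HFWD 4, chow 1 or chow 3 was left out (adjusted p = 0.0504 to 0.0759), and the Lef1 call once HFWD 1, HFWD 2, HFWD 4, chow 1, chow 2 or chow 3 was left out (adjusted p = 0.0517 to 0.0869). The own-row riser was Vnn1, a pantetheinase, at 18, 10.6, 11.4 and 34 units on chow and 58.1, 57.4, 30.4, 88.3 and 72.3 on HFWD, in which chow 4 lay above HFWD 3 (3.35-fold, adjusted p = 0.0102). Cpt1a, the gate of mitochondrial fatty acid import, was at 276 ± 20.3 and 360.1 ± 97.9 (adjusted p = 0.422). Cyp4a14, a fatty acid hydroxylase, ran from 13.7 to 630 units among the chow livers and from 3.04 to 372 among the HFWD livers (adjusted p = 0.878), a spread that would hide all but very large differences. Of 24 apolipoproteins and lipoprotein genes 0 were called by their own rows, while 1 of 15 opposite-strand rows rose and 2 fell.

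**Figure D3:**
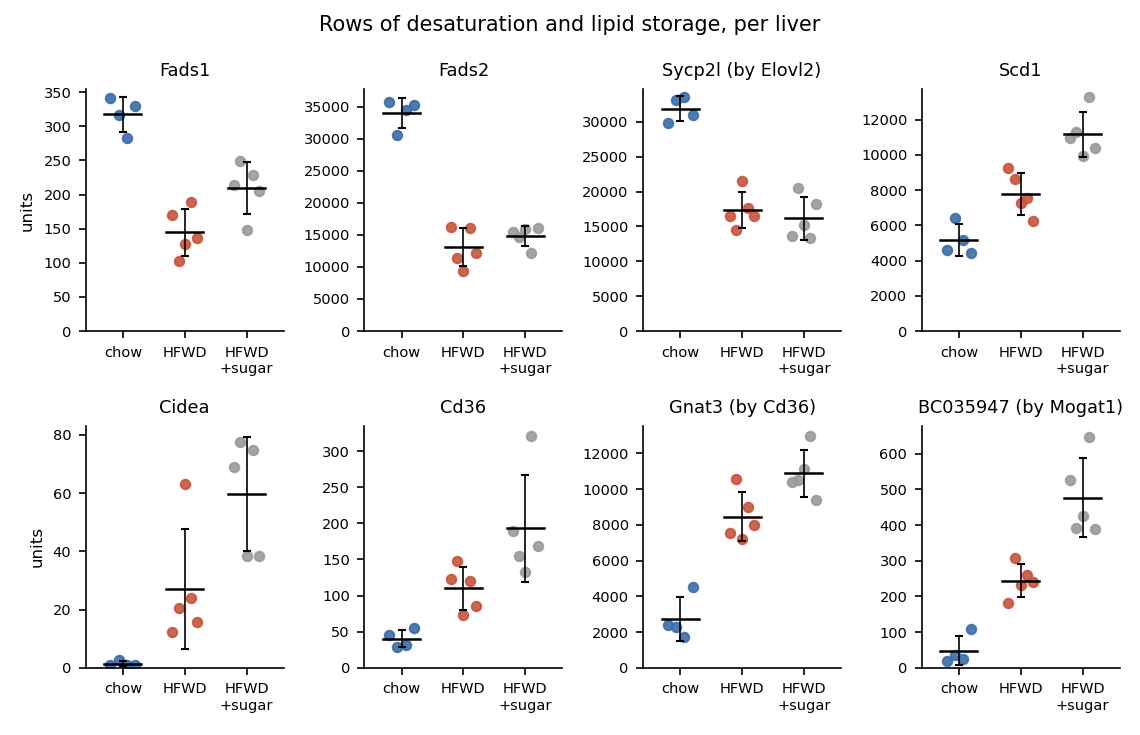
Normalized units per liver (points, axes from 0) with the mean and SD (bars) for 8 rows of desaturation and lipid storage, in 4 chow, 5 HFWD and 5 HFWD+sugar livers. Fads1, Fads2 and Sycp2l are lower in all HFWD livers than in all chow livers, whereas Cidea, Cd36, Gnat3 and BC035947 are higher, and Scd1 overlaps in HFWD 5.

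A few rows of glycolysis and its control rose. Of 30 genes of glycolysis and fructose breakdown 4 rose (13.3%) and 0 fell (median 0.20), and without chow 3 the risers numbered 2. Pfkfb1, the bifunctional enzyme that sets fructose 2,6-bisphosphate, rose 1.48-fold, from 458, 412, 473 and 457 to 638, 718, 734, 676 and 571 (adjusted p = 0.00334). Chow values were within a narrow band, and all HFWD livers were above it. The Pfkfb1 row, at a mean of 634 units over the 14 livers, overlaps that of Apex2 on the other strand, at 1159. Pfkp, a phosphofructokinase, rose 1.35-fold (adjusted p = 0.0118), a call lost once chow 3 was left out (adjusted p = 0.0506). Another, Aldh3a2, a fatty aldehyde dehydrogenase that the list also held, rose from 191 ± 72.6 to 419.6 ± 123 (adjusted p = 0.0272), a call lost once HFWD 1, HFWD 2, HFWD 3, HFWD 4, chow 2 or chow 3 was left out (adjusted p = 0.0545 to 0.102). The row of its opposite-strand neighbour Aldh3a1, 5 kb away, read 34528, 25471, 28262 and 50916 on chow and 66811, 81525, 76758, 80126 and 58158 on HFWD. These did not overlap, and Aldh3a1 rose 2.15-fold (adjusted p = 0.000728).

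Gluconeogenic and nitrogen genes gave a few calls in both directions. Of 24 genes of gluconeogenesis and insulin response 1 fell and 0 rose by their own rows (median 0.13), and of 16 opposite-strand rows 3 rose and 2 fell. Lrfn4, whose row overlaps the pyruvate carboxylase gene Pcx, rose 1.38-fold (31208 ± 2822 to 43090.4 ± 2385 units, adjusted p = 0.00938), and 1700019B03Rik rose 1.54-fold (2692 ± 459.6 to 4099 ± 259, adjusted p = 0.00246). The own-row faller was Pck1, the phosphoenolpyruvate carboxykinase. It fell 1.51-fold, from 1486, 1335, 1282 and 1117 to 813, 913, 682, 1014 and 902 (adjusted p = 0.023). Its groups were separate, but its call ended once HFWD 1, HFWD 3, chow 1 or chow 3 was left out (adjusted p = 0.0574 to 0.0855). The Ctcfl row, 33.5 kb from Pck1 on the other strand, held far higher values of 200362 ± 33642 on chow and 115436 ± 27908 on HFWD and fell 1.75-fold (adjusted p = 0.0306), a call lost once HFWD 1, HFWD 3, HFWD 4, chow 1 or chow 3 was left out (adjusted p = 0.0753 to 0.105) and once chow 4 and HFWD 1 were left out together (adjusted p = 0.0727). G6pc, the glucose 6-phosphatase, was at 351 ± 123 and 308 ± 108 (adjusted p = 0.783). Of 35 genes of the urea cycle and amino acid breakdown 1 rose and 2 fell (median -0.050). Cps1, which makes carbamoyl phosphate for the urea cycle (chromosome 1, 67169600 to 67277833, plus strand), went from 9649.7, 7010.4, 9968 and 4969.5 on chow to 5051, 3977, 2387, 3550.03 and 3251 on HFWD. HFWD 1 stood just above chow 4, the only overlap, and the row fell 2.15-fold (adjusted p = 0.00713). Tdo2 and Kmo, enzymes of tryptophan breakdown, rose 1.31-fold (adjusted p = 0.0199) and fell 1.69-fold (adjusted p = 0.0319). The Tdo2 call ended once HFWD 1, HFWD 2, HFWD 4, chow 1 or chow 3 was left out (adjusted p = 0.051 to 0.0782) and the Kmo call once HFWD 1, HFWD 2, HFWD 3, HFWD 4, chow 2 or chow 3 was left out (adjusted p = 0.0642 to 0.0955).

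Single genes of drug and steroid metabolism rose, while of 18 Cyp1, Cyp3a and nuclear receptor genes 0 were called (median -0.0037). Of 31 tested genes of the Cyp2 family 3 rose (9.68%) and 0 fell (median 0.25), and 5 rose without chow 4. Cyp2b9, a cytochrome P450 that is female-biased in mouse liver, did not leave the floor in any of the 4 chow livers and was at 16.7, 39.2, 6.02, 50.3 and 33.4 units in the HFWD livers (adjusted p = 0.000337). Cyp2a12, a steroid hydroxylase (chromosome 7, 27814109 to 27821826, plus strand), read 363, 375, 316 and 546 on chow and 1468, 1896, 681, 2499 and 1227 on HFWD. The HFWD livers differed widely among themselves and were all above chow (3.62-fold, adjusted p = 0.0031). The third, Cyp2a5, was called at adjusted p = 0.0411 and ended once HFWD 1, HFWD 2, HFWD 4, HFWD+sugar 1, HFWD+sugar 3, HFWD+sugar 5, chow 1, chow 2 or chow 3 was left out (adjusted p = 0.051 to 0.14). These genes have close relatives, and how reads shared by relatives were counted is not stated. Cyp2b10, the phenobarbital-inducible relative, was at the floor in 7 of the 9 livers.

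Ephx1, the microsomal epoxide hydrolase, was at 1231, 504, 911 and 2386 units on chow and 3173, 3379, 4001, 3560.3 and 2423 on HFWD, 3.03-fold higher (adjusted p = 0.0042). Chow 4 nearly reached HFWD 5. The Tmem63a row, 1.04 kb away on the other strand, rose as well, from 18557, 13811, 17382 and 20668 to 30878, 38181, 41548, 38953 and 38026. Its groups were wide apart (2.14-fold, adjusted p = 1.44e-05). Ephx1 was the only one of 38 glutathione and NRF2 genes called by its own row (median 0.12). Ugt3a1 was the 1 riser among 21 glucuronosyl- and sulfotransferases (22.7 ± 3.56 to 62.9 ± 22.4, adjusted p = 0.0195), a call lost once HFWD 1, HFWD 4 or chow 3 was left out (adjusted p = 0.0543 to 0.0621), once chow 2 and chow 4 were left out together (adjusted p = 0.0558) and once chow 4 and HFWD 1 were left out together (adjusted p = 0.0589). Cux2, a transcription factor that is female-biased in mouse liver, fell from 648, 616, 634 and 534 to 394, 429, 379.8, 355 and 378 units without overlap (1.57-fold, adjusted p = 0.00354), and with Cyp2b9 was called among 29 growth hormone and sex-biased genes.

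**Figure D4:**
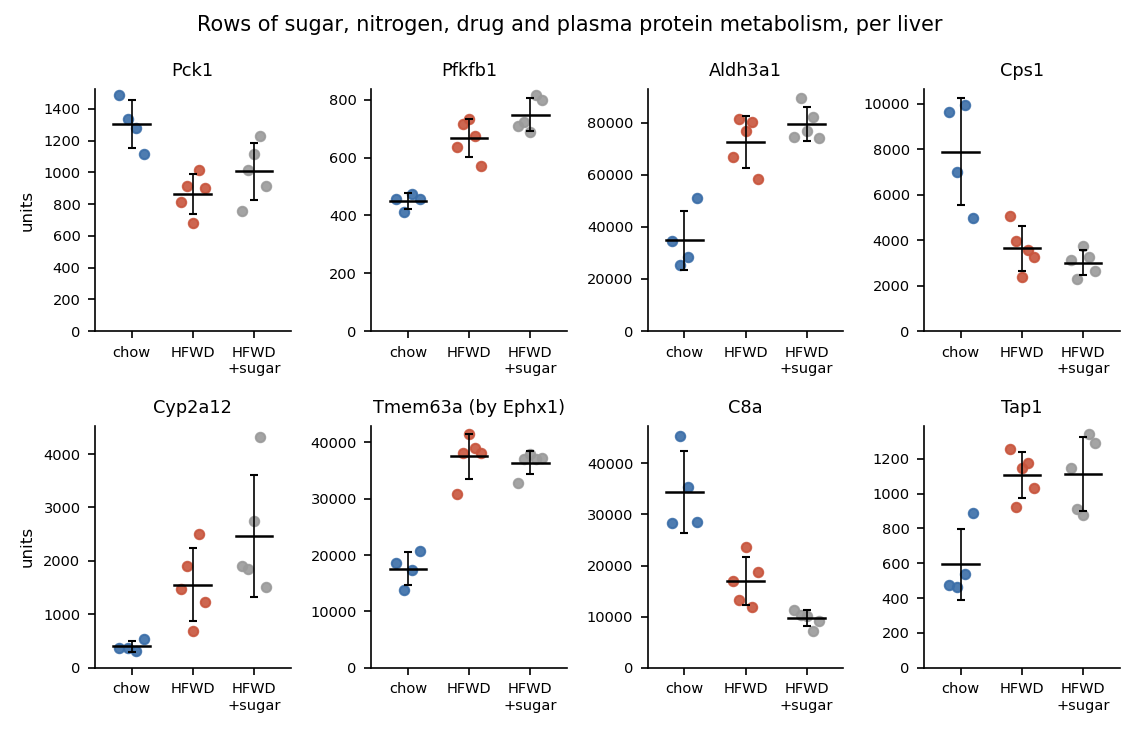
Normalized units per liver (points, axes from 0) with the mean and SD (bars) for 8 rows of sugar, nitrogen, drug and plasma protein metabolism, in 4 chow, 5 HFWD and 5 HFWD+sugar livers. Pfkfb1, Aldh3a1, Cyp2a12, Tmem63a and Tap1 are higher in all HFWD livers than in all chow livers, C8a and Pck1 are lower, and Cps1 overlaps between chow 4 and HFWD 1.

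Plasma protein genes were called in both directions. Of 40 genes of complement and coagulation 3 rose (7.5%) and 2 fell (5%), with a median of 0.085. C8a, the alpha chain of complement component 8 (chromosome 4, 104488284 to 104549003, minus strand), was at 28264, 45437, 35318 and 28475 on chow and 16984, 13274, 23691, 11914 and 18655 on HFWD. It fell 2.06-fold (adjusted p = 0.00403), without overlap between the diets. The C8a row, at a mean of 19304 units over the 14 livers, overlaps the Gm17662 row on the other strand, at 41268. C8g, the gamma chain, moved the other way, from 1000.1, 902, 988 and 1075 to 1401, 1310.2, 1354, 1459.8 and 1219.95 units, a 1.36-fold rise that kept the groups apart (adjusted p = 0.0136). Its row, at a mean of 1209 units over the 14 livers, overlaps the Fbxw5 row on the other strand, at 18059. The other 3 were C8b, the beta chain (fell, adjusted p = 0.0308), Mbl2, mannose-binding lectin (rose, adjusted p = 0.0181), and Cfd, complement factor D (rose, adjusted p = 0.016). C8b, at a mean of 219 units over the 14 livers, lies 11.1 kb from the far higher C8a row on the other strand. C8b was no longer called once HFWD 2, HFWD 4, HFWD 5, chow 1, chow 2 or chow 3 was left out (adjusted p = 0.0526 to 0.0944) and once chow 2 and chow 4 were left out together (adjusted p = 0.0542), Mbl2 once HFWD 4 or chow 3 was left out (adjusted p = 0.0534 to 0.0605) and Cfd once HFWD 4 or chow 3 was left out (adjusted p = 0.0532 to 0.0614). Of 26 acute-phase genes 0 were called by their own rows. Saa1, serum amyloid A, stood at 582, 39802, 472 and 767 on chow and 1192, 3222, 4007.7, 2231 and 43884 on HFWD, so that chow 2 and HFWD 5 were far above the other livers of their groups. It was not called (adjusted p = 0.597), but was called higher on HFWD once chow 2 was left out (adjusted p = 0.0384), also together with chow 4 (adjusted p = 0.0474).

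Genes of antigen processing and interferon response gave single calls by their own rows, 1 of 23 (4.35%) and 1 of 34 (2.94%) beside the 2.44% of all rows that rose. Tap1, the peptide transporter of MHC class I loading (chromosome 17, 34324498 to 34334170, plus strand), was at 476, 466, 539 and 891 units on chow and 1258, 921, 1146, 1174 and 1033 on HFWD. All HFWD livers were above chow 4, the highest of its group (1.92-fold, adjusted p = 0.00567). The Tap1 row, at a mean of 962 units over the 14 livers, overlaps that of Psmb9 on the other strand, at 55. Tap1 was the 1 called of the MHC genes. The interferon-induced gene that rose was Rsad2 (viperin), from 282, 291, 319 and 239.8 to 453, 474, 498, 509 and 716 (adjusted p = 0.0136), a call lost once chow 2 and chow 4 were left out together (adjusted p = 0.0574), and the list's median was 0.30. Of its 23 opposite-strand rows 4 rose and 1 fell. Art3, which overlaps the chemokine gene Cxcl10, rose 2.23-fold from 331, 208, 199 and 323 to 451, 525, 718, 544 and 681 (adjusted p = 0.00596). Olfr94, an olfactory receptor row 0.613 kb from Ubd, the ubiquitin-like FAT10 of inflammation, was at 30.8, 29.2, 25.9 and 27.4 on chow and 91.4, 154, 164, 169 and 111 on HFWD. The 4 chow livers were nearly alike and far below the HFWD livers (4.61-fold, adjusted p = 4.45e-05).

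Markers of other liver cells gave few calls. Of 22 macrophage and Kupffer cell genes 1 rose (median 0.15): Ctss, cathepsin S, from 14.6 ± 10.2 to 41 ± 9.73 (adjusted p = 0.0345), lost once HFWD 1, HFWD 2, HFWD 3, HFWD 4, chow 1, chow 3 or chow 4 was left out (adjusted p = 0.0555 to 0.114) and once chow 4 and HFWD 1 were left out together (adjusted p = 0.116). Of their 14 opposite-strand rows 2 rose and 2 fell, and of 14 markers of lipid-associated macrophages 1 fell. This was Ctsb, described above, whose row overlaps the sterol gene Fdft1, and reads of the 2 cannot be told apart. The summed level of the macrophage and Kupffer list ran from 3122 to 5496 units on chow and 3821 to 4616 on HFWD. Of 39 genes of stellate cells and fibrosis 0 were called by their own rows and 3 of 31 opposite-strand rows rose (own-row median 0.10), and their sum ran from 35929 to 47099 on chow and 42137 to 47760 on HFWD. Cytokines (0 of 23 called), endothelial (0 of 22), cholangiocyte (0 of 11), erythroid (0 of 9, median 0.75), T and NK cell (0 of 8), B cell (0 of 5) and neutrophil markers (0 of 4) had no call by their own rows. Among opposite-strand rows, 3 of 21 rose and 1 fell beside cytokine genes, and 2 of 14 rose beside neutrophil markers. Beside T and NK cell markers 2 of 16 rose, beside endothelial markers 1 of 17 and beside B cell markers 1 of 9. The 13 beside cholangiocyte and 8 beside erythroid markers had 0 calls. Cd68 and Emr1, macrophage markers, were at 19.2 ± 9.82 and 13.1 ± 3.84 and at 11.9 ± 5.08 and 14.8 ± 12.6 units (adjusted p = 0.714 and adjusted p = 0.995). Acta2, actin of activated stellate cells, was at 194 ± 59.5 and 190.5 ± 49.8 (adjusted p = 0.991), and Lcn2, lipocalin 2, at 1054 ± 19.98 and 1202 ± 44.9 (adjusted p = 0.269). Ccl2 and Col1a1 were at the floor in all chow livers and in 2 and 4 of the HFWD livers, and Timp1 was too near the floor to test. At this level falls and small rises of Ccl2 and Col1a1 could not be seen, and neither was called (adjusted p = 0.357 and adjusted p = 0.866). The part of cell composition in the other results was not tested.

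**Figure D5:**
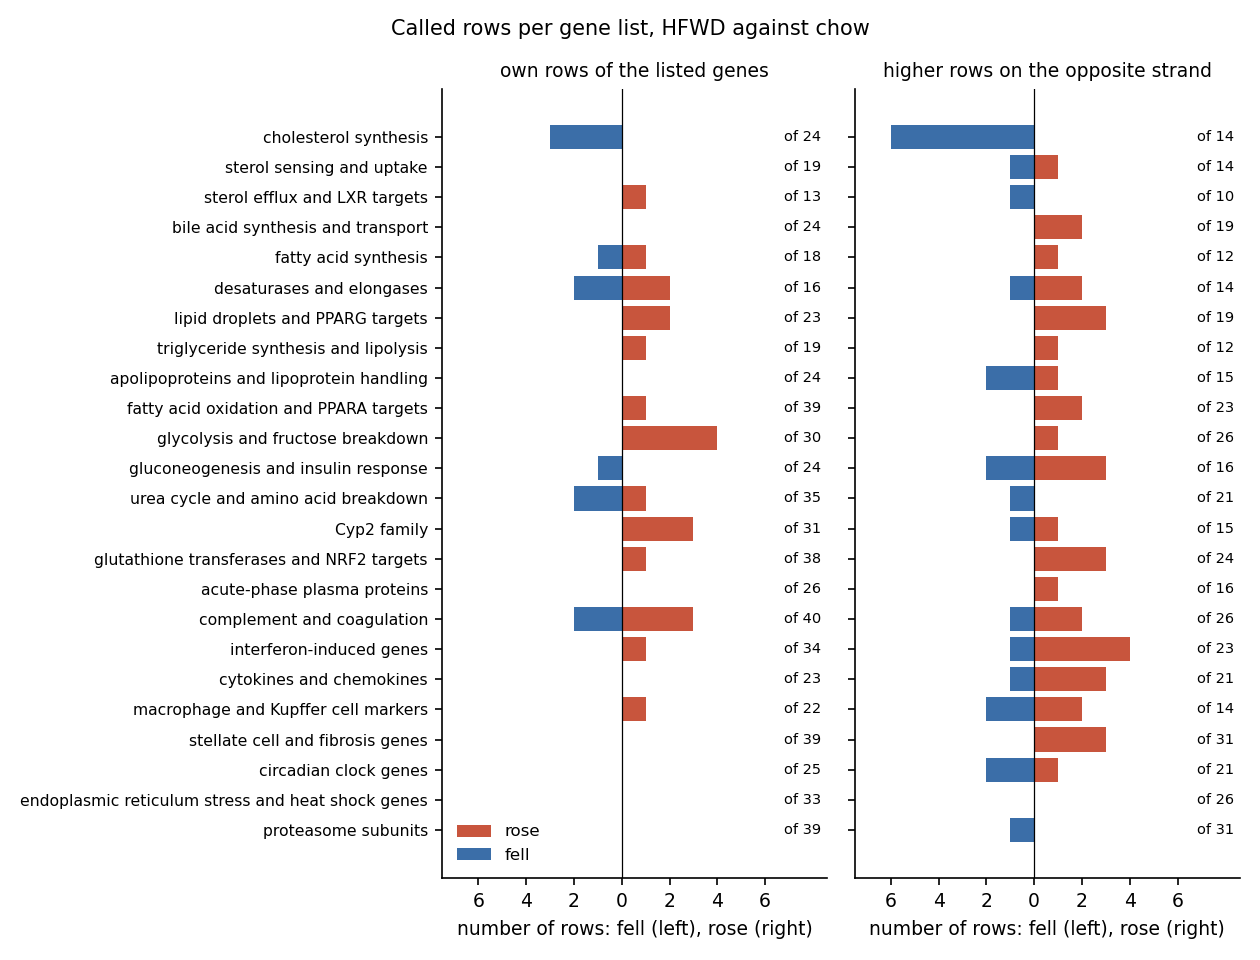
Number of rows that fell (blue, left) and rose (red, right) on HFWD for 24 gene lists, by the listed genes' own rows (left panel) and by the higher opposite-strand row beside each gene, where there is one (right panel); the number tested stands at the right. Cholesterol synthesis has 3 falls among 24 own rows and 6 among 14 opposite-strand rows, and no rise in either.

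Across all 48 gene lists, 45 of 1163 tested members were called (3.87%), beside 3.38% of all tested rows, so the lists as a whole held about the share that any rows did, and 454 called rows belonged to none. Lists with 0 calls by their own rows included endoplasmic reticulum stress and heat shock genes (33), proteasome subunits (39), circadian clock genes (25), immediate early genes (25), proliferation genes (33) and methionine and choline metabolism (22). Among opposite-strand rows, 3 of 24 rose beside immediate early genes, and of 21 beside circadian clock genes 1 rose and 2 fell. Beside proliferation genes 1 of 32 rose and 1 fell, beside methionine and choline genes 1 of 14 rose, and beside proteasome genes 1 of 31 fell. The 26 beside endoplasmic reticulum stress and heat shock genes had 0 calls. Of 87 oxidative phosphorylation genes 2 rose, Cox5b and Ndufa11, and 1 fell; the risers numbered 0 without HFWD 4 and 5 without chow 4. Ndufa2, the faller, a complex I subunit, went from 508, 592, 507 and 692 to 324, 263, 291, 244 and 368 units, 1.93-fold lower and without overlap (adjusted p = 0.000626). Of 32 collagens 1 fell. This was Col20a1, at 131, 43.3, 85 and 75.4 units on chow and 1, 1, 3.04, 4.66 and 1 on HFWD (adjusted p = 0.000236), the lowest log2 difference of all called rows (-4.80, SE 0.62), with 3 HFWD livers at the floor.

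Most of the strongest single rises belonged to no list. Srsf3, a splicing factor (chromosome 17, 29169618 to 29180311, plus strand), had the highest log2 difference (3.77, SE 0.63, adjusted p = 0.00232). It was at 24.4, 37.2, 31.7 and 1 units on chow and 174, 121, 325, 345 and 197 on HFWD, and it was the 1 called among 37 SR and hnRNP genes. Its value in chow 4, the shallowest library, is the floor, and the rank of this row leans on that value. Tmigd1, a membrane protein of the immunoglobulin family (chromosome 11, 76715661 to 76730089, plus strand), read 9.98, 19.3, 32.5 and 64.6 on chow and 158, 388, 402, 311 and 535 on HFWD (12.6-fold, adjusted p = 5.23e-05). Prcp, a carboxypeptidase that cleaves angiotensin and bradykinin-pathway peptides, was at 69.2, 103, 54 and 68.4 and 380.3, 382, 547, 564 and 603. Its HFWD livers were all far above any chow liver (6.69-fold, adjusted p = 1.56e-06). Impa2, an inositol monophosphatase next to Cidea, rose 8.86-fold (49 ± 26.5 to 475 ± 331, adjusted p = 0.000283).

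A further 6 rows above the median level were among the 12 highest, as was BC035947. Mmp1b, a matrix metalloproteinase whose row overlaps the macrophage elastase gene Mmp12, rose 7.33-fold, with HFWD 3 at 1419 units and the other HFWD livers between 162 and 495. Klhdc4 rose 7.17-fold on HFWD (27.3 ± 17.3 to 180.3 ± 71.5) but stood at 88.2 ± 55.1 on HFWD+sugar. Alpk3, a muscle kinase, rose 6.43-fold and Gpr98, an adhesion receptor, 5.71-fold. Tmprss11f, a serine protease, rose 5.56-fold and Gpr176, an orphan receptor, 5.17-fold. Adjusted p-values of the 6 were 0.00273, 0.00418, 3.41e-05, 0.0104, 0.000424 and 0.000867, by limma.

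Among the fallers outside the sterol neighbours, Cnga1, a cyclic nucleotide-gated channel of photoreceptors (chromosome 5, 72994935 to 73033991, minus strand), was at 839.8, 1427, 513 and 287 units on chow and 20.3, 51.2, 18.2, 47.5 and 138 on HFWD. Chow livers varied widely and still all exceeded the highest HFWD liver (15.2-fold lower, adjusted p = 0.000626). Adcy2, an adenylyl cyclase, fell 8.41-fold, from 246, 165, 199 and 459 to 49.8, 15.1, 42.5, 24.1 and 23.8 (adjusted p = 0.000377). Lyrm4, a protein of iron-sulfur cluster assembly, fell 5.03-fold (1502 ± 656 to 293 ± 104, adjusted p = 0.000259). Ccdc11, a cilium gene, fell 5.47-fold (adjusted p = 0.00463), Zxdc, a zinc finger coactivator, 3.63-fold (adjusted p = 0.00149) and Opalin, an oligodendrocyte membrane protein, 3.31-fold (adjusted p = 0.00138). The call of Efna3, an ephrin (adjusted p = 0.0136), ended once chow 2 and chow 4 were left out together (adjusted p = 0.0935).

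Neighbours of the called rows were counted on both strands, but not in the same way. On the opposite strand the nearest of all 22850 rows was taken, and an untested row counted as not called. On the same strand it was the nearest of the 14770 tested rows. The nearest opposite-strand row had also risen for 39 of 352 risers (11.1%), against 2.82% of uncalled rows, and had fallen for 4 of 135 fallers (2.96%, against 1.23%). The nearest row on the same strand had risen for 6 of 318 risers (1.89%, against 2.37% of uncalled rows) and had fallen for 0 of 128 fallers (against 0.865%). Cd36 with Gnat3, Ephx1 with Tmem63a, Aldh3a2 with Aldh3a1, Scd1 with Scd2, Pck1 with Ctcfl, Fdps with Ash1l and C8b with C8a are such pairs among the rows described. These shares were not tested.

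The livers that also received sugar share the chow controls, and their levels are given side by side for some of the rows. Akap9 was at 1568 ± 317 units on HFWD+sugar (SD, n = 5), Wdr37 at 95.8 ± 11.2 and Fads2 at 14870.5 ± 1598, near the HFWD levels, whereas Pmvk was at 11.3 ± 3.2 beside 3.14 ± 2.89 on HFWD and C8a at 9649.8 ± 1559 beside 16904 ± 4669.6. Of the risers, Gnat3 was at 10881 ± 1328, Cidea at 59.6 ± 19.6 and Tmem63a at 36412 ± 2081. Between HFWD+sugar and HFWD limma called 0 of the 14770 rows, while 1273 had an unadjusted p under 0.05. For Cidea the difference was 1.28 on the log2 scale (SE 0.42, adjusted p = 0.525) and for C8a -0.78 (SE 0.18, adjusted p = 0.46).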

How the data were processed

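Liver RNA, depleted of ribosomal RNA, was sequenced in 14 libraries with a HiSeq2500, per the labels' protocols. These name both a TruSeq RNA kit and NEBNext modules and mention no step that marks strand. The submitters' processing notes name FastQC, TopHat2 2.0, SAMtools and build mm9; for counter, strand setting and scaling the sources used here give nothing. The authors deposited 1 table of normalized expression, a signal per gene on a linear scale with a floor of 1, for 22369 protein-coding and 481 immunoglobulin rows, with mm9 coordinates. Columns were matched to samples by title. The values are not counts (54.2% to 64.8% of low values were whole multiples of the step, within 0.02), so no count model was used. Depth was taken as a library's total over its step. With the step taken as 1 read, replicate pairs differed by 6.62 to 56.8 times sampling noise (chi-square per degree of freedom, 26 pairs). No column was thus a copy of another in its group. Whether libraries share an animal cannot be read from this, because separate libraries of 1 animal can also differ by more than sampling noise.

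In R 4.3.3 with limma 3.58.1, log2(value + 1) of rows above 1 in at least 4 of 14 livers was fitted with 3 group means over all 14 livers and a variance trend, 2-sided, with Benjamini-Hochberg adjustment over the 14770 rows and a threshold of 0.05. "Rose", "fell" and "called" refer to it. Folds and log2 differences are on the log2(value + 1) scale, which understates changes of low rows. The fit was checked on simulated data. Described rows are the 12 highest and 12 lowest called rows at or above the median level without overlap, per list the 3 called members lowest in p, a fixed panel, up to 3 called opposite-strand rows per list, and others named as chosen later (also Mvk, Cyp51, Idi1, Nsdhl, C8b, Mbl2, Aldh3a2). An opposite-strand row is the highest within 200 kb that exceeds the gene's own. Members, 48 lists and the panel were chosen with earlier results of these data known. A few rows that these rules name are not reported here.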

Additional observations from a re-analysis of the deposited data

Results flagged for a closer look

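Single livers stood apart from the rest of their group, by the gap to the nearest liver over the group's range, in 18 groups of values of the rows described. The chow and HFWD groups of the 102 described rows were searched. For normally distributed values the cut-offs mark about 1 in 20 groups by chance. That rate need not hold for these linear units. Where all other livers of a group are at the floor, a single value above it is always marked. Saa1, an acute-phase protein, was at 39802 units in chow 2, where the next chow liver had 767, and at 43884 in HFWD 5, where the next had 4007.7. Chow 4 was highest for Tmprss11f (226 against 73.4 units) and Fasn (147 against 74.3), and lowest for Agpat9 (6.85 against 18.9). HFWD 3 was highest for Mmp1b (1419 against 495), Cidea (63.1 against 23.9) and Fdps (6.08 against 1.51). HFWD 5 was highest for Kmo (20946.5 against 14858), Rsad2 (716 against 509) and Cnga1 (138 against 51.2). HFWD 4 was lowest for Ccdc11 (21.4 against 49.3) and highest for Pmvk (8.04 against 3.04), and HFWD 1 highest for Ctss (58.0 against 40.2). Cidea was at 2.65 in chow 2 and at the floor in the other chow livers. Cyp2b10 was above the floor in chow 1 (7.69) and HFWD 2 (3.02), and Col1a1 in HFWD 2 (3.02), values of a few reads. Causes were not tested.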

How the results depend on the processing

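The direction of all 102 rows described was kept under 28 alternatives where either setting gave a call. Of the 79 called rows, 48 stayed called under each alternative that tested them. The count of rows was less stable, beside 361 higher and 138 lower. Without the filter on low rows, 230 were higher and 79 lower, and with libraries centred on their medians 187 and 88. With only the 9 chow and HFWD livers in the fit, which leaves fewer samples to estimate the spread, there were 174 and 66. Without the variance trend there were 186 and 60, with array weights 674 and 347, without both chow 2 and chow 4, 595 and 321, and without both chow 4 and HFWD 1 (chosen after seeing the data) 546 and 198. Leaving out 1 liver gave 193 (HFWD 4) to 709 (chow 4) higher and 62 (HFWD 4) to 342 (chow 4) lower. Other pseudocounts, a mean of at least 20 units, quantile normalization, a robust prior and a term for library numbers kept both counts within 1.5 times. The term for library numbers still ended the calls of Ctcfl, Kmo, Cyp2a5, C8b, Aldh3a2 and Lef1 (adjusted p = 0.0518 to 0.0825) and gave one to Mvk (adjusted p = 0.0195), and fallers of the urea cycle and of the complement list went from 2 to 1 each. Causes were not tested. No paired analysis was possible because the libraries carry unique numbers and the replicate numbers follow accession order. Depth limits rows below about 20 units, and these values carry no count from which an interval could be made.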
